A study of Mus musculus with 9 samples.

Results

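The mitochondrially encoded transcripts are the genes that the mitochondrial DNA itself carries. They were taken as every gene of the expression table whose symbol starts with mt-, which gave 37 of the 55487 genes listed: 13 mRNA genes, 2 rRNA genes and 22 tRNA genes. All 37 lie at their GENCODE M21 positions on the mitochondrial chromosome of GRCm38, so the symbols and the loci named the same set. RNA-seq had been performed on splenic CD4+ T cells of wild-type C57BL/6 (Trail-r+/+) mice, which the study's methods give as female and 6 to 7 weeks old, and the cells were enriched by removal of other cell types with a negative selection kit. The study asked which expression changes accompany TRAIL-R signaling in T cells activated through the TCR. The medium group (n = 3 libraries) was cultured in RPMI-1640 with fetal calf serum and antibiotics, for a time not given in the sources used here. The stimulated group (n = 3) received antibodies to CD3 at 3 µg/ml and to CD28 at 2 µg/ml for 24 h, and the TRAIL-treated group (n = 3) received the same antibodies and 10 µg/ml of TRAIL over those 24 h. No group received TRAIL alone, and the labels do not say whether the libraries of a group came from separate mice, so p-values measure the spread between these libraries, which may be technical.

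The mitochondrial genome is a small circle that is transcribed from both strands into long precursors. Most of its tRNAs sit between the mRNAs and rRNAs, and excision of the tRNAs at both ends releases the neighbouring transcripts, a layout known as tRNA punctuation. The mRNAs encode core subunits of complexes I, III, IV and V of oxidative phosphorylation, the rRNAs and tRNAs serve the ribosome inside the organelle, and every other subunit and every factor that copies, transcribes or translates this genome is nuclear-encoded. T cells that are activated grow and rebuild their mitochondria, and this pathway is therefore a usual readout of their metabolic state.

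The tRNA genes with the largest differences between groups are printed first, because the results below turn on them. The sequences are the GENCODE M21 transcripts (GRCm38), 5′ to 3′ on the transcribed strand with T for U, and the capitals mark the anticodon, the triplet that reads the codon. It was located as the triplet for the named amino acid in a loop of 7 bases closed by at least 3 of 5 possible pairs, between bases 25 and 39 of the gene.
mt-Tt (threonine, chrM:15289-15355, plus strand): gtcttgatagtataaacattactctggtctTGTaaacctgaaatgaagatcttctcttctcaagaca
mt-Tp (proline, chrM:15356-15422, minus strand): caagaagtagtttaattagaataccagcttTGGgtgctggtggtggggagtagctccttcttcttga
mt-Tn (asparagine, chrM:5089-5159, minus strand): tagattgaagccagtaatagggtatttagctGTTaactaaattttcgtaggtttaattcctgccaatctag
mt-Ta (alanine, chrM:5018-5086, minus strand): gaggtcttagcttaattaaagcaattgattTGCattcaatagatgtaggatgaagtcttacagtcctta
mt-Tw (tryptophan, chrM:4950-5016, plus strand): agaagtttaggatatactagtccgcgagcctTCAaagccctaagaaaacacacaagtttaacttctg
mt-Te (glutamate, chrM:14071-14139, minus strand): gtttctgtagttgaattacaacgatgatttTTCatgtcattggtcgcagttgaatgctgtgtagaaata
mt-Tl1 (leucine, chrM:2676-2750, plus strand): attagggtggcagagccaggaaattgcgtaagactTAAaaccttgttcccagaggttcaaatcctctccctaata
mt-Ts1 (serine, chrM:6870-6938, minus strand): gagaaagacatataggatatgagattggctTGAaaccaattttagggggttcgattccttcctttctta
Of these, mt-Tt and mt-Tp are direct neighbours that are read from opposite strands, whereas mt-Tw, mt-Ta and mt-Tn stand side by side between mt-Nd2 and mt-Co1. mt-Ts1 lies against the 3′ end of mt-Co1 on the other strand and shares 3 bases with it.

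Values are TPM, the reads of a gene per base of its length scaled to the same total in every library. They are therefore shares of a total. They can be set side by side between genes, within limits given below for short genes and for members with nuclear copies. The number of reads behind the TPM is unknown. Differences were tested with limma on log2(TPM + 1) for the 15536 genes that reached 1 TPM in 3 or more libraries, which included 35 members. A gene passed at a Benjamini-Hochberg adjusted p under 0.05, and it was called when its log2 fold change was also 1 or more in size. All fold changes are on this scale, where those of low genes are understated, and a ± after a fold change is its standard error.

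The summed share of the 13 mRNAs was lower after stimulation than in medium and, with TRAIL, overlapped that in medium. Their summed share of all TPM was 9.14, 10.5 and 9.01% in the medium libraries, 5.17, 5.26 and 5.43% in the stimulated libraries, and 8.72, 9.02 and 10.5% in the TRAIL-treated libraries. Stimulated libraries lay below the other groups without overlap, and TRAIL-treated replicate 1 lay below the medium libraries. The mean shares were 9.54% ± 0.80 (SD, n = 3), 5.28% ± 0.13 and 9.40% ± 0.93. The 2 rRNAs held much less, with 0.186 to 0.206% in medium, 0.174 to 0.196% after stimulation and 0.188 to 0.309% with TRAIL. The summed share of the 22 tRNA genes went the opposite way, from 0.140 to 0.152% in medium to 0.290 to 0.359% after stimulation. With TRAIL it was 0.155 to 0.225%. In bulk RNA, fewer cells of a type and less RNA per cell cannot be told apart, and a share also falls when other transcripts rise.

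For stimulated against medium cells, 10 of the 13 mRNAs passed as lower, 1 as higher (mt-Nd6) and 2 did not pass (mt-Nd1 and mt-Nd2). Among all genes tested, 40.0% passed as lower and 28.8% as higher. Of the mRNAs 4 were called lower (mt-Co1, mt-Co3, mt-Atp6 and mt-Atp8), where 19.5% of all genes were called lower and 12.4% higher. The median log2 fold change of the mRNAs was -0.61, beside -0.15 over all genes tested.

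The 3 mRNAs of complex IV, cytochrome c oxidase, all fell, and mt-Co1 and mt-Co3 had the largest falls of the 13 mRNAs. mt-Co1, the catalytic core subunit and the most abundant gene of the table in every medium and TRAIL-treated library, had 27369, 28928 and 26814 TPM in medium, 11013, 10952 and 11067 TPM after stimulation, and 23830, 24380 and 27780 TPM with TRAIL. The stimulated libraries stood apart from the others, and there mt-Co1 ranked second in the table. Its log2 fold change was -1.33 ± 0.11 (limma, adjusted p = 2.76e-06) on stimulation. mt-Co2, the subunit that accepts electrons from cytochrome c, had 5675, 7142 and 5779 TPM in medium, 3908, 3676 and 3867 TPM after stimulation and 6085, 6014 and 6862 TPM with TRAIL. Its fall, at -0.69 ± 0.12 (limma, adjusted p = 0.000467), was smaller than that of mt-Co1 although no stimulated library reached the others. mt-Co3, a structural subunit, had 5772, 5218 and 5443 TPM in medium, 2841, 2039 and 2141 TPM after stimulation and 4083, 4509 and 5397 TPM with TRAIL, a fall of 1.24 ± 0.15 on the log2 scale in size against medium (limma, adjusted p = 3.8e-05).

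The mRNAs of complex V, the ATP synthase, fell to a like extent. mt-Atp8, a small membrane subunit, had 13527, 15536 and 12439 TPM in medium, 6970, 6424 and 6693 TPM after stimulation and 11841, 12417 and 14047 TPM with TRAIL. mt-Atp6, the proton channel subunit, had 8561, 9538 and 7837 TPM in medium, 4292, 4023 and 4185 TPM after stimulation and 8140, 8360 and 9568 TPM with TRAIL. In both genes the stimulated values were well below all others, with log2 fold changes of -1.04 ± 0.12 and -1.05 ± 0.12 (limma, adjusted p = 3.24e-05 and 1.91e-05). The genes are read from the same bicistronic mRNA and share 43 bases, so reads there cannot be assigned to either gene, at chrM:7927-7969 on the plus strand: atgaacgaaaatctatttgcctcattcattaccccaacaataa. mt-Cytb, the only complex III subunit of this genome, had 7630, 10354 and 8388 TPM in medium, 4545, 4747 and 5055 TPM after stimulation and 8678, 8950 and 10444 TPM with TRAIL. It fell by 0.87 ± 0.14 on the log2 scale (limma, adjusted p = 0.000255), short of the fold threshold.

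**Figure D1:**
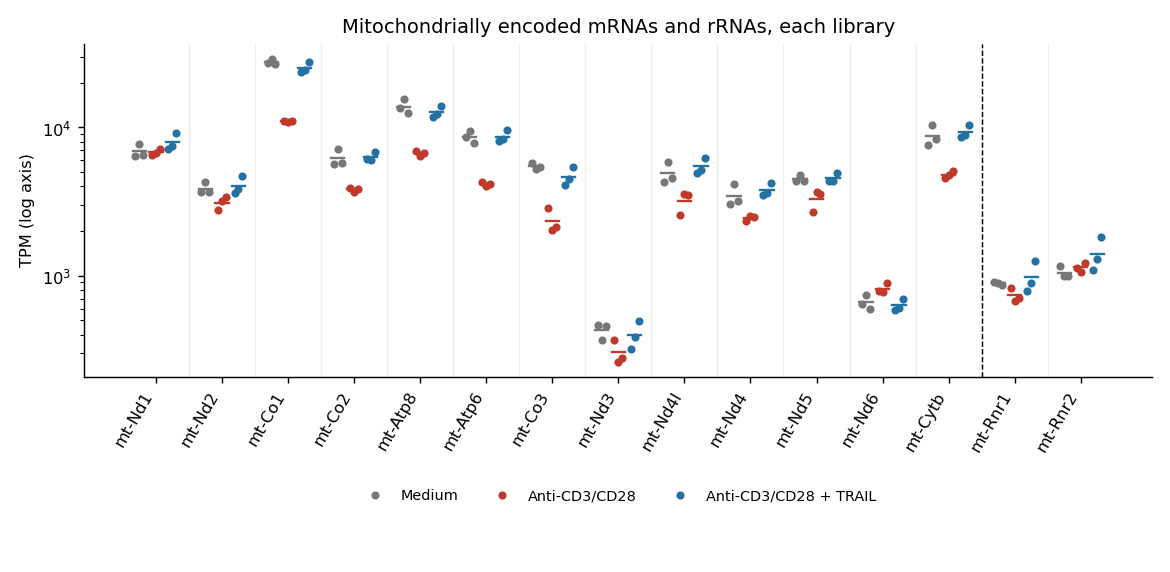
TPM (log axis) of the 13 mRNA genes and, right of the dashed line, the 2 rRNA genes in each of the 9 libraries; points are libraries and bars the group means. For mt-Co1 the stimulated libraries lie between 10952 and 11067 TPM and the others between 23830 and 28928 TPM, whereas mt-Nd1 overlaps between groups and mt-Nd6 is highest after stimulation.

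The 7 subunits of complex I, NADH dehydrogenase, did not move as a block. mt-Nd1, the subunit at the junction of the peripheral and membrane arms, had 6469, 7761 and 6479 TPM in medium, 6508, 6759 and 7181 TPM after stimulation and 7167, 7554 and 9219 TPM with TRAIL. All groups overlapped, and the difference on stimulation was -0.01 ± 0.13 (limma, adjusted p = 0.93). mt-Nd2, a proton-pumping membrane subunit, had 3656, 4281 and 3670 TPM in medium, 2780, 3183 and 3377 TPM after stimulation and 3621, 3834 and 4721 TPM with TRAIL, at -0.31 ± 0.13 (limma, adjusted p = 0.0576). These genes are the closest to the rRNAs on the heavy-strand precursor. Farther along it, mt-Nd4 passed with 3042, 4126 and 3198 TPM in medium, 2356, 2520 and 2493 TPM after stimulation and 3489, 3632 and 4237 TPM with TRAIL, at -0.48 ± 0.13 (limma, adjusted p = 0.00886).
mt-Nd4l shares 7 bases with mt-Nd4 and had 4298, 5826 and 4579 TPM in medium, 2571, 3569 and 3502 TPM after stimulation and 4968, 5169 and 6234 TPM with TRAIL, at -0.61 ± 0.17 (limma, adjusted p = 0.00831). mt-Nd5, a further proton-pumping subunit, had 4323, 4763 and 4385 TPM in medium, 2709, 3668 and 3559 TPM after stimulation and 4351, 4361 and 4932 TPM with TRAIL. Its stimulated libraries did not overlap with the others, at -0.45 ± 0.13 against medium (limma, adjusted p = 0.0116). mt-Nd3, the least abundant mRNA, had 463, 369 and 461 TPM in medium, 370, 263 and 279 TPM after stimulation and 322, 385 and 496 TPM with TRAIL. Its groups overlapped, with -0.51 ± 0.18 (limma, adjusted p = 0.0276).

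mt-Nd6, the complex I subunit that is alone among the mRNAs in being read from the light-strand precursor, had 641, 742 and 600.1 TPM in medium, 789, 771 and 892 TPM after stimulation and 589, 606 and 696 TPM with TRAIL. The stimulated libraries were the highest, at 0.31 ± 0.11 against medium (limma, adjusted p = 0.0331). Relative to the sum of the 12 mRNAs of the other strand, mt-Nd6 was 0.697% ± 0.023 (SD, n = 3) in medium, 1.57% ± 0.093 after stimulation and 0.676% ± 0.0051 with TRAIL. mt-Nd6 and mt-Nd5 share 14 bases at their 3′ ends, and because the sources used here do not say whether reads were counted by strand, reads of the one strand over the other gene cannot be told apart.

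Without a filter on low values, mt-Nd3, mt-Nd4, mt-Nd4l, mt-Nd5 and mt-Nd6 no longer passed, and with median-of-ratios scaling mt-Nd3, mt-Nd4 and mt-Nd5 did not. Under quantile normalization, which sets the top-ranked genes of every library to equal values, mt-Atp8, mt-Co2, mt-Cytb, mt-Nd4l, mt-Nd5 and mt-Nd6 no longer passed and mt-Nd1 passed as higher at 0.59, while mt-Co1 and mt-Atp6 still passed, at -0.77 and -0.51, short of the fold threshold. mt-Atp6 and mt-Atp8 also fell short of it with median-of-ratios scaling and without medium replicate 2. mt-Co1, mt-Co3 and mt-Atp6 passed as lower in all 21 alternatives, and mt-Nd2 also passed as lower in 3 of them. mt-Nd3 and mt-Nd6 did not pass without medium replicate 1, without medium replicate 3 or without stimulated replicate 3, and mt-Nd3 also failed without stimulated replicate 2. mt-Nd6 also failed when TPM were rescaled to the total without mt- genes (0.24), or without these and the chromosome 1 copies (0.22), and with a replicate block.

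Within the mRNA pool, given as the percent of the summed TPM of the 13 mRNAs and with no test, mt-Co1 made up 29.1% ± 1.3 (SD, n = 3) in medium, 20.8% ± 0.47 after stimulation and 27.0% ± 0.40 with TRAIL. mt-Nd1 made up 7.23% ± 0.18, 12.9% ± 0.32 and 8.47% ± 0.31 in the same order. mt-Nd2, mt-Nd4 and mt-Nd5 also took larger portions after stimulation, at 5.88% ± 0.44, 4.65% ± 0.12 and 6.26% ± 0.90 beside 4.06% ± 0.050, 3.61% ± 0.31 and 4.72% ± 0.16 in medium. mt-Cytb kept a like portion, with 9.19% ± 0.78 in medium, 9.04% ± 0.26 after stimulation and 9.95% ± 0.028 with TRAIL. The TPM ratio of mt-Nd1 to mt-Co1 was 0.236, 0.268 and 0.242 in medium, 0.591, 0.617 and 0.649 after stimulation and 0.301, 0.310 and 0.332 with TRAIL. This ratio does not depend on the library total, and its 3 groups did not overlap.

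With TRAIL added to the stimulation, 10 of the 13 mRNAs passed as higher than in stimulated cells, 1 passed as lower (mt-Nd6) and 2 did not pass (mt-Nd1 and mt-Nd3). Over all genes, 33.5% passed as higher and 33.5% as lower. Of the mRNAs 3 were called higher (mt-Co1, mt-Atp6 and mt-Co3), where 16.6% of all genes were called higher and 14.3% lower. The median log2 fold change of the mRNAs was 0.73, beside 0.011 over all genes. mt-Co1 rose by 1.199 ± 0.11 on the log2 scale (limma, adjusted p = 6.29e-06), mt-Atp6 by 1.06 ± 0.12 (limma, adjusted p = 1.82e-05) and mt-Co3 by 1.00 ± 0.15 (limma, adjusted p = 0.000185). Below the fold threshold, mt-Cytb, mt-Atp8, mt-Nd4l, mt-Co2, mt-Nd4, mt-Nd5 and mt-Nd2 rose by 0.96, 0.93, 0.77, 0.73, 0.62, 0.47 and 0.38 on the log2 scale, in this order. mt-Nd6 fell by 0.37 ± 0.11 on the log2 scale (limma, adjusted p = 0.0136). The differences of mt-Nd1 and mt-Nd3 were 0.22 ± 0.13 and 0.39 ± 0.18 (limma, adjusted p = 0.161 and 0.0777).
Both comparisons share the stimulated libraries, so an unusual value there enters both. Without a filter on low values mt-Nd2, mt-Nd5 and mt-Nd6 no longer passed, and under quantile normalization mt-Atp8, mt-Nd2, mt-Nd5 and mt-Nd6 failed while mt-Nd1 passed as lower at -0.59 and mt-Nd3 as higher at 0.53. mt-Nd3 passed in 5 alternatives, among them the fits without stimulated replicate 1 and without TRAIL-treated replicate 1 (0.54 in each). The folds of mt-Co1, mt-Atp6 and mt-Co3 fell below the threshold under quantile normalization, at 0.77, 0.47 and 0.87, that of mt-Co3 also without stimulated replicate 2 or 3 or TRAIL-treated replicate 3, and that of mt-Atp6 without TRAIL-treated replicate 3. mt-Nd6 also failed without stimulated replicate 3, without TRAIL-treated replicate 1 or 2 and on the total without mt- genes and chromosome 1 copies, and mt-Nd2 with median-of-ratios scaling, without stimulated replicate 1 or 2 and without TRAIL-treated replicate 3.

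Against medium, 0 of the 13 mRNAs passed in the TRAIL-treated cells by limma's adjusted p, and 0 had an unadjusted p under 0.05. The background was 8.03% of all genes passed as higher and 24.6% as lower, with 2.49% called higher and 2.13% called lower. The mRNA log2 fold changes ran from -0.24 (mt-Co3) to 0.21 (mt-Nd1) with a median of 0.017, beside -0.18 over all genes tested. The 95% interval of mt-Co1 was -0.38 to 0.12, and a p that misses the threshold does not show that the levels were equal.

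The rRNAs, which form the small (mt-Rnr1) and large (mt-Rnr2) subunits of the mitochondrial ribosome, passed in none of the comparisons, other than in the alternatives named below. mt-Rnr1 had 903, 888 and 870 TPM in medium, 828, 680 and 706 TPM after stimulation and 794, 889 and 1264 TPM with TRAIL. mt-Rnr2 had 1154, 999 and 994 TPM in medium, 1132, 1063 and 1220 TPM after stimulation and 1089, 1298 and 1822 TPM with TRAIL. TRAIL-treated replicate 3 was the highest library for both genes. For mt-Rnr1 the stimulated libraries all lay below the medium libraries, and the other groups overlapped. On stimulation the log2 fold changes were -0.27 ± 0.16 for mt-Rnr1 and 0.12 ± 0.17 for mt-Rnr2 (limma, adjusted p = 0.156 and 0.549). With TRAIL against stimulated cells they were 0.39 ± 0.16 and 0.27 ± 0.17 (limma, adjusted p = 0.0521 and 0.181), and mt-Rnr1 passed as higher in 6 alternatives, among them the fits without stimulated replicate 1 and without TRAIL-treated replicate 1. mt-Rnr1 also passed as lower on stimulation under quantile normalization (-0.54) and without TRAIL-treated replicate 3 (-0.27). Without TRAIL-treated replicate 1, mt-Rnr2 passed as higher against stimulated cells (0.44) and against medium (0.55). Relative to the mRNAs, the rRNAs amounted to 2.04% ± 0.22 (SD, n = 3) in medium, 3.55% ± 0.24 after stimulation and 2.51% ± 0.40 with TRAIL. The kit was one for mRNA, so these levels cannot be taken as the abundance of the rRNAs in the cell.

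The tRNA genes were the members with the largest fold changes. For stimulated against medium cells 12 of the 20 tested were called higher, 1 was called lower (mt-Ts1) and 7 did not pass, where 12.4% of all genes were called higher and 19.5% lower. The 7 were mt-Tf, mt-Ti, mt-Tq, mt-Tm, mt-Tc, mt-Ty and mt-Tg, with log2 fold changes of -0.33 to 0.55. The remaining tRNA genes, mt-Th and mt-Ts2, were listed at the lowest value of the table in every medium library, stayed under 1 TPM elsewhere and were not tested. mt-Tt, the threonine tRNA gene at the end of the heavy-strand precursor, had 6.20, 8.58 and 4.17 TPM in medium, 66.6, 75.9 and 93.7 TPM after stimulation and 12.6, 15.9 and 19.9 TPM with TRAIL. The 3 groups did not overlap, the mean after stimulation was 12.5 times that in medium, and the log2 fold change was 3.48 ± 0.23 (limma, adjusted p = 4.58e-07). mt-Tp, the proline tRNA gene next to it on the other strand, had 5.57, 6.90 and 5.63 TPM in medium, 52.1, 62.2 and 74.4 TPM after stimulation and 8.49, 9.14 and 9.39 TPM with TRAIL. It rose by 3.17 ± 0.14 on the log2 scale (limma, adjusted p = 2.2e-08), and its groups were again apart.

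In the cluster between mt-Nd2 and mt-Co1, the 3 genes nearest mt-Nd2 rose. mt-Tw had 24.8, 12.5 and 15.8 TPM in medium and 99.9, 84.3 and 83.1 TPM after stimulation, mt-Ta had 17.6, 9.03 and 11.2 TPM and then 85.0, 69.6 and 68.9 TPM, and mt-Tn had 6.18, 4.57 and 4.68 TPM and then 45.0, 33.2 and 35.7 TPM. Every stimulated value exceeded every medium value, with log2 fold changes of 2.32 ± 0.23, 2.51 ± 0.20 and 2.66 ± 0.14 (limma, adjusted p = 7.96e-06, 1.88e-06 and 8.92e-08). The cysteine and tyrosine tRNA genes that complete the cluster did not pass, with 31.2, 29.1 and 21.7 TPM in medium and 30.0, 34.2 and 38.6 TPM after stimulation for mt-Tc, and 82.0, 68.3 and 55.4 TPM and 60.9, 85.7 and 93.6 TPM for mt-Ty, although mt-Tc passed as higher with median-of-ratios scaling (0.48). mt-Ta and mt-Tn, which rose, and mt-Tc and mt-Ty, which did not pass, are all read from the light strand, and mt-Tw from the heavy strand. Across the genome 8 of 12 tested heavy-strand and 4 of 8 tested light-strand tRNA genes were called higher, where 12.4% of all genes were. The strands were not tested against each other. Without the strand of the reads, transcripts of the named strand and antisense RNA over these genes cannot be told apart.

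mt-Tl1, the leucine tRNA gene between mt-Rnr2 and mt-Nd1, was the most abundant tRNA gene after stimulation and with TRAIL. It had 420.2, 481 and 437 TPM in medium, 1604, 1691 and 1897 TPM after stimulation and 807, 902 and 1181 TPM with TRAIL, with 3 groups that did not overlap and a log2 fold change of 1.95 ± 0.14 on stimulation (limma, adjusted p = 7.69e-07). It accounted for 30.3% ± 2.3 (SD, n = 3) of all mitochondrial tRNA TPM in medium, 54.4% ± 1.4 after stimulation and 51.9% ± 0.82 with TRAIL. Its TPM were 6.48% ± 0.28 of those of its neighbour mt-Nd1 in medium, 25.4% ± 0.94 after stimulation and 12.01% ± 0.78 with TRAIL. mt-Te, the glutamate tRNA gene next to mt-Nd6 on the light strand, had 149, 146 and 130.2 TPM in medium, 448, 570 and 780 TPM after stimulation and 142, 188 and 276 TPM with TRAIL. The stimulated libraries were the highest, and the rise was 2.04 ± 0.24 on the log2 scale (limma, adjusted p = 3.28e-05).
Of the others that were called higher on stimulation, mt-Tv (valine), mt-Tk (lysine), mt-Tr (arginine), mt-Tl2 (leucine) and mt-Td (aspartate) had log2 fold changes of 1.89, 1.67, 1.28, 1.203 and 1.06. Their means in medium were low, from 3.14 TPM for mt-Tl2 to 15.1 TPM for mt-Tk, and after stimulation they ranged from 8.60 TPM for mt-Td to 51.6 TPM for mt-Tk. The call of mt-Tl2 was lost without a filter on low values and without stimulated replicate 3 (0.91). With a pseudocount of 5 TPM the folds of mt-Td (0.66), mt-Tr (0.94) and mt-Tl2 (0.74) fell below the threshold.

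mt-Ts1 went against the 12 tRNA genes that were called higher on stimulation. This serine tRNA gene had 579, 544 and 543 TPM in medium, the most of any tRNA gene there, 217, 117 and 131 TPM after stimulation and 280.1, 306 and 332 TPM with TRAIL. The groups did not overlap, and the log2 fold change was -1.89 ± 0.19 on stimulation (limma, adjusted p = 1.15e-05). With TRAIL mt-Ts1 rose by 1.03 ± 0.19 against stimulated cells (limma, adjusted p = 0.000893). This rise passed in all 21 alternatives but was 0.85 at its lowest there, short of the fold threshold. mt-Co1, whose 3′ end it overlaps on the other strand, fell and rose in the same comparisons, and mt-Ts1 amounted to 2.01% ± 0.12 (SD, n = 3) of the TPM of mt-Co1 in medium, 1.41% ± 0.49 after stimulation and 1.21% ± 0.041 with TRAIL. Without the strand of the reads, antisense RNA of mt-Ts1 that extends from mt-Co1 and mt-Ts1 itself cannot be told apart.

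**Figure D2:**
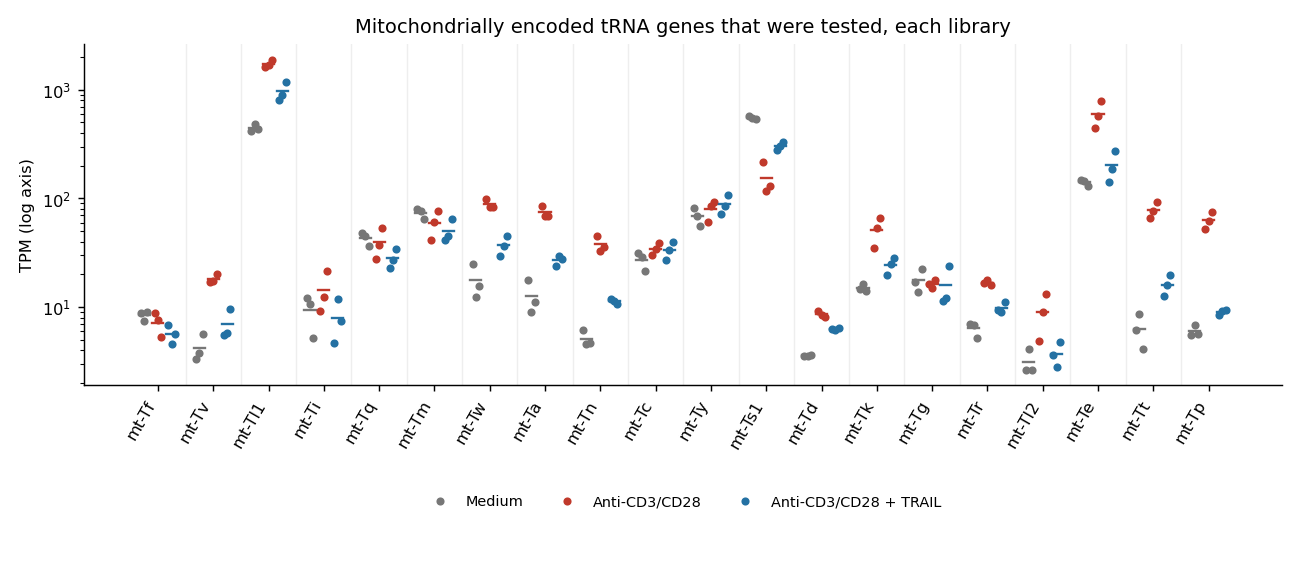
TPM (log axis) of the 20 tRNA genes that were tested, in each of the 9 libraries and in genome order; points are libraries and bars the group means. mt-Tt and mt-Tp rise from 4.17 to 8.58 TPM in medium to 52.1 to 93.7 TPM after stimulation, while mt-Ts1 is highest in medium.

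With TRAIL against stimulated cells, 12 of the 20 tRNA genes passed as lower and 1 as higher, mt-Ts1. In each direction 33.5% of all genes passed. Of the 12 that passed as lower, 9 were called (mt-Tp, mt-Tt, mt-Tn, mt-Te, mt-Ta, mt-Tv, mt-Tw, mt-Tk and mt-Tl2), where 14.3% of all genes were called lower. mt-Tp fell by 2.66 ± 0.14 and mt-Tt by 2.23 ± 0.23 on the log2 scale (limma, adjusted p = 8.77e-08 and 1.35e-05), followed by mt-Tn at -1.65 ± 0.14 (limma, adjusted p = 3.39e-06). mt-Tl2 did not pass without a filter on low values. mt-Tl1, mt-Tr and mt-Td fell by 0.86, 0.71 and 0.39 on the log2 scale, below the fold threshold. mt-Tk and mt-Tl2 were called at -1.01 and stood at -0.81 and -0.71 without stimulated replicate 3, and with a pseudocount of 5 TPM they and mt-Tv fell short of the fold threshold. The tRNA genes that did not pass were the 7 that had not passed on stimulation. Of these, mt-Ti (-1.02), mt-Tq (-0.67) and mt-Tm (-0.46) passed as lower without stimulated replicate 1, mt-Tf (-0.47) without stimulated replicate 3 and mt-Ti (-1.06) without TRAIL-treated replicate 2.
Unlike the mRNAs, several tRNA genes still differed from medium in the presence of TRAIL. Of the 20, 9 passed as higher and 1 as lower (mt-Ts1, -0.86 ± 0.19, limma, adjusted p = 0.0085), against 8.03% and 24.6% of all genes. The 5 that were called higher, where 2.49% of all genes were, were mt-Tt (1.25), mt-Ta (1.10), mt-Tl1 (1.09), mt-Tw (1.06) and mt-Tn (1.02), with mean TPM 2.56, 2.16, 2.16, 2.098 and 2.21 times those in medium. mt-Td, mt-Tk, mt-Tr and mt-Tp passed below the fold threshold, at 0.67, 0.65, 0.57 and 0.51. These fold changes lie close to the threshold, and the count of called members fell to 2 without medium replicate 2, to 3 without TRAIL-treated replicate 3 and to 1 with a pseudocount of 5 TPM. mt-Ts1 no longer passed without a filter on low values or with median-of-ratios scaling (-0.68). Without that filter mt-Tw, mt-Tk and mt-Tp failed too, and mt-Tk also with a pseudocount of 5 TPM. mt-Tk no longer passed without medium replicate 1, 2 or 3 or TRAIL-treated replicate 2 or 3, and mt-Tp without medium replicate 1 or 3 or TRAIL-treated replicate 2 or 3. In the fit of only the 6 libraries compared, mt-Tf (-0.50), mt-Tq (-0.61) and mt-Tm (-0.56) passed as lower too. All of them also passed without stimulated replicate 1, mt-Tf and mt-Tq without stimulated replicate 3, mt-Tf without TRAIL-treated replicate 1 and mt-Tm without TRAIL-treated replicate 3. mt-Tv passed as higher in 5 alternatives: with median-of-ratios scaling (0.75), quantile normalization (0.78) and a replicate block, and without medium replicate 3 or TRAIL-treated replicate 1.

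The mitochondrial tRNA genes are 59 to 75 bases long, and mature tRNAs carry no poly(A) tail. Whether the TPM of these genes come from mature tRNAs or from reads over uncut precursors cannot be told apart from TPM, and the length correction is large for genes shorter than the sequenced fragments. Nuclear RNAs without a poly(A) tail moved between the groups as well, so their values are given here. Of 24 such genes that were listed (small nuclear and cytoplasmic RNAs and histone mRNAs), 18 were tested, 13 passed as lower on stimulation and 1 as higher (the histone gene H3c3), where 40.0% and 28.8% of all genes did. With TRAIL against stimulated cells 11 passed as higher and 1 as lower, again H3c3, where 33.5% of all genes passed in each direction. Their summed TPM were 292 to 320 in medium, 54.6 to 83.7 after stimulation and 310 to 457 with TRAIL, highest in TRAIL-treated replicate 3. Their part in the results on the members was not tested.

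**Figure D3:**
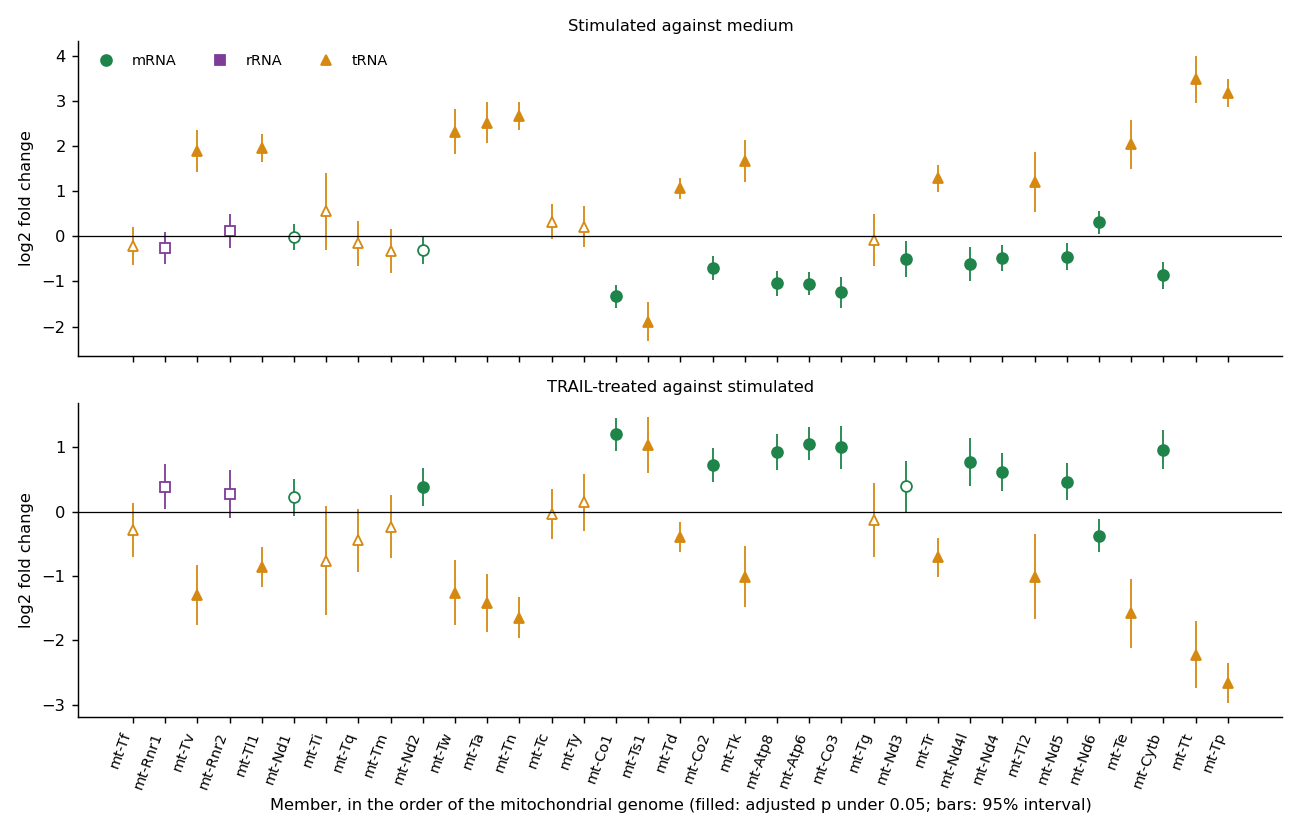
Log2 fold changes of the 35 tested members in genome order, for stimulated against medium cells (top) and TRAIL-treated against stimulated cells (bottom); bars are 95% intervals, filled symbols have an adjusted p under 0.05, and shapes mark mRNA, rRNA and tRNA genes. The mRNAs after mt-Nd2 lie below 0 on stimulation except mt-Nd6, and most tRNA genes above it, and the members that passed in both comparisons have opposite signs in them; under quantile normalization mt-Nd1 turns to 0.59 (top) and -0.59 (bottom).

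Chromosome 1 of the mouse carries a nuclear copy of mitochondrial DNA, and 7 pseudogenes of GENCODE M21 at chr1:24611535-24616197 (GRCm38) match the stretch from mt-Co1 to mt-Nd4 (chrM:6390-11042). Gm28661, Gm10925, Gm28437 and Gm10222 are identical to mt-Co2, mt-Atp6, mt-Co3 and mt-Nd4l over 681, 678, 783 and 294 bases, and Gm28439 to the first 876 bases of mt-Nd4. Gm28438 differs from mt-Nd3 at 1 of 345 bases, T3C counted from the first base of mt-Nd3, and Gm29216 from the last 483 bases of mt-Co1 at 1 base, A1066T counted from the first base of mt-Co1. The starts of mt-Nd3 and its copy are shown to give the difference in capitals.
mt-Nd3: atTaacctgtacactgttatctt
Gm28438: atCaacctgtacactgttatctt
Reads of these stretches cannot be assigned to either place, apart from the few that cover such a base.

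The deposited TPM of the copies were close to those of the members. For the 5 copies of nearly full length, the ratio of copy to member was 0.949 to 1.17 in all 9 libraries. Gm28437, for example, had 5229 to 5790 TPM in medium, 2032 to 2838 TPM after stimulation and 4078 to 5404 TPM with TRAIL, beside 5218 to 5772, 2039 to 2841 and 4083 to 5397 TPM for mt-Co3. Gm29216, which matches only the end of mt-Co1, was at 0.179 to 0.243 of it, and Gm28439 at 0.791 to 0.903 of mt-Nd4. The copies held 3.32 to 3.78% of all TPM in medium, 1.84 to 1.91% after stimulation and 3.16 to 3.87% with TRAIL. mt-Atp8 and the tRNA genes mt-Ts1, mt-Td, mt-Tk, mt-Tg and mt-Tr lie within the same stretch but no pseudogene is annotated for them.
Because of this, the levels of the 7 members with copies can be understated next to those of mt-Nd1, mt-Nd2, mt-Nd5, mt-Nd6, mt-Cytb and the rRNAs. Whether mt-Atp8 and the tRNA genes within that stretch are understated too was not tested, and no copy could be added to them. The copies had fold changes near those of their members, and the farthest apart was Gm29216, at -1.18 on stimulation and 1.04 with TRAIL against stimulated cells beside -1.33 and 1.199 for mt-Co1. With the copies added to their members 17, 13 and 5 members were called in the 3 comparisons, the counts obtained without them. In the mRNA pool with the copies added, mt-Co1 made up 25.4% ± 1.3 (SD, n = 3) in medium and 18.7% ± 0.60 after stimulation, and mt-Nd1 5.29% ± 0.14 and 9.53% ± 0.33.

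**Figure D4:**
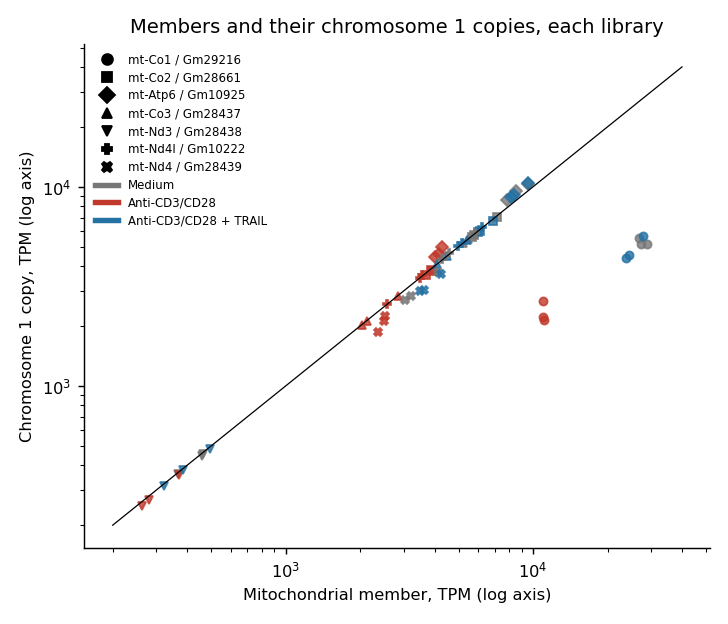
TPM of 7 members (x, log axis) against TPM of their chromosome 1 copies (y, log axis) in each of the 9 libraries, with colours for groups, shapes for gene pairs and the line of equal values. Gene pairs of nearly full length lie along the line at ratios of 0.949 to 1.17, and mt-Co1 with Gm29216 lies below it at 0.179 to 0.243.

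The summed TPM of the nuclear partners moved the other way to the summed TPM of the 13 mRNAs. Summed over 71 nuclear subunit genes of complexes I, III, IV and V, TPM were 7147, 5957 and 7209 in medium, 13388, 11045 and 11141 after stimulation and 6338, 6718 and 6998 with TRAIL. The mitochondrial mRNAs were 12.8, 17.6 and 12.5 times this sum in medium, 3.86, 4.76 and 4.87 times after stimulation and 13.8, 13.4 and 15.0 times with TRAIL. The ratio is independent of the library total, was lowest in the stimulated libraries without overlap and overlapped between the other groups. Within complex IV, the 3 mitochondrial mRNAs summed to 38036 to 41288 TPM in medium and 16667 to 17761 TPM after stimulation, while the 11 nuclear subunits summed to 1212 to 1540 TPM and 2323 to 3007 TPM. Within complex V the 2 mitochondrial mRNAs went from 20276 to 25074 TPM to 10447 to 11262 TPM, and 14 nuclear subunits from 2252 to 2572 TPM to 4254 to 4773 TPM. In complex I the sums also moved in opposite directions, with 37 nuclear subunits at 1695 to 2180 TPM in medium and 2959 to 3850 TPM after stimulation. The sum of the 7 mitochondrial mRNAs fell less than in complexes IV and V, from 22892 to 27869 TPM to 18082 to 21282 TPM.

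**Figure D5:**
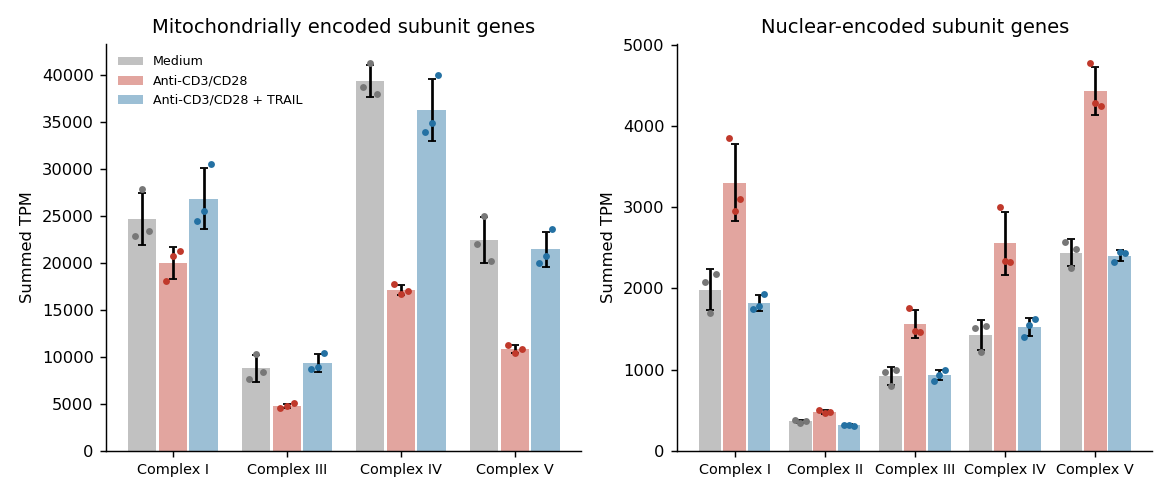
Summed TPM of the mitochondrially encoded (left) and nuclear-encoded (right) subunit genes of each complex; bars are means, error bars SD (n = 3) and points libraries, and complex II has no mitochondrially encoded subunit. Complex IV falls from at least 38036 to at most 17761 TPM on the left and rises from at most 1540 to at least 2323 TPM on the right after stimulation.

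By the test, 29 of 37 nuclear complex I subunits passed as higher on stimulation, 7 of 9 in complex III, 9 of 11 in complex IV, 10 of 14 in complex V and 3 of 4 in complex II, which has no mitochondrial member, and none of these genes passed as lower (28.8% of all genes passed as higher). With TRAIL against stimulated cells 31, 8, 9, 11 and 4 of them passed as lower and none as higher. In each direction 33.5% of all genes passed. Sdha passed as lower by a narrow margin (limma, adjusted p = 0.0477) and did not pass in 14 alternatives. Atp5b, the catalytic subunit of complex V, had 608, 648 and 606 TPM in medium, 1265, 1301 and 1302 TPM after stimulation and 608, 609 and 549.9 TPM with TRAIL, a rise of 1.05 ± 0.084 on the log2 scale (limma, adjusted p = 1.67e-06). Cox4i1 of complex IV had 260.4, 276 and 262 TPM, 484, 448 and 438 TPM, and 340.2, 372 and 343 TPM in the same order, and rose by 0.78 ± 0.084 (limma, adjusted p = 1.65e-05). Ndufa6 of complex I, Uqcrh of complex III and Sdha of complex II did not pass on stimulation, with log2 fold changes of 0.18, 0.38 and 0.15. Sdha passed as higher with median-of-ratios scaling (0.31) and without stimulated replicate 1 (0.26). Uqcrh did so with median-of-ratios scaling (0.54) and without medium replicate 3 (0.47).

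Genes that transcribe and maintain the mitochondrial genome were counted by list. Polrmt, the mitochondrial RNA polymerase, had 22.2, 29.1 and 23.7 TPM in medium, 18.8, 24.1 and 24.2 TPM after stimulation and 19.0, 15.4 and 12.4 TPM with TRAIL, with -0.15 ± 0.17 on stimulation and -0.51 ± 0.17 with TRAIL against stimulated cells (limma, adjusted p = 0.445 and 0.0224); the second did not pass without stimulated replicate 2 or 3 or TRAIL-treated replicate 2 or 3. Tfam, the factor that packages the genome and starts its transcription, had 46.9, 37.2 and 44.3 TPM in medium. It had 44.2, 40.0 and 41.6 TPM after stimulation and 35.4, 37.7 and 36.0 TPM with TRAIL, and passed in no comparison. Without medium replicate 2 Tfam passed as lower for TRAIL-treated against medium cells (-0.32). Of 10 genes of mitochondrial transcription 2 passed as higher on stimulation (Tefm and Mterf4) and 3 as lower (Mterf2, Mterf3 and Tfb2m), where 28.8% of all genes passed as higher and 40.0% as lower. With TRAIL 5 of the 10 passed as lower and 1 as higher against stimulated cells, where 33.5% of all genes passed in each direction. Against medium 8 passed as lower and 1 as higher, where 24.6% and 8.03% of all genes did. Mterf2, a member of the transcription termination factor family, fell by 0.81 ± 0.15 on the log2 scale (limma, adjusted p = 0.000818). Tefm, the elongation factor, had 10.6, 6.93 and 9.19 TPM in medium, 16.5, 13.4 and 10.5 TPM after stimulation and 4.71, 6.04 and 3.60 TPM with TRAIL, and fell by 1.32 ± 0.21 on the log2 scale with TRAIL against stimulated cells (limma, adjusted p = 0.000275). Its rise on stimulation, 0.54 ± 0.21 (limma, adjusted p = 0.0408), failed in 8 alternatives, among them the fits without medium replicate 2 or 3, stimulated replicate 1 or 2, or TRAIL-treated replicate 1.
Of 10 genes of mitochondrial DNA replication 5 passed as higher on stimulation and 2 as lower (28.8% and 40.0% of all genes). With TRAIL 7 passed as lower and 1 as higher against stimulated cells (33.5% of all genes in each direction). Against medium 3 passed as lower and 1 as higher (24.6% and 8.03% of all genes). Polg2, the accessory subunit of the DNA polymerase, differed most, with 30.3, 32.2 and 31.7 TPM in medium, 8.25, 8.04 and 7.89 TPM after stimulation and 55.4, 48.0 and 47.1 TPM with TRAIL. The groups were far apart, with -1.84 ± 0.096 on stimulation and 2.49 ± 0.096 with TRAIL against stimulated cells (limma, adjusted p = 7.31e-08 and 1.06e-08). Polg, the catalytic subunit, had group means of 50.4, 42.7 and 46.9 TPM and passed in no comparison.

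Of 14 genes that process mitochondrial RNA 6 passed as higher on stimulation, 1 passed as lower (Ptcd1) and 7 did not pass, beside 28.8% and 40.0% of all genes that passed as higher and lower, and with TRAIL against stimulated cells 11 passed as lower (33.5% of all genes). Hsd17b10, a subunit of the RNase P that cuts tRNA 5′ ends, had 73.3, 54.9 and 78.2 TPM in medium, 140, 114 and 122 TPM after stimulation and 62.3, 64.3 and 63.5 TPM with TRAIL. It rose by 0.87 ± 0.13 on the log2 scale and fell by 0.97 ± 0.13 with TRAIL (limma, adjusted p = 0.000226 and 0.000104). Of 7 genes of RNA stability and decay 5 passed as higher on stimulation, where 28.8% of all genes did. With TRAIL against stimulated cells 6 of the 7 passed as lower, where 33.5% of all genes did. Lrpprc and Slirp, partners that bind and protect mitochondrial mRNAs, had means of 40.9 and 6.47 TPM in medium, 72.5 and 13.6 TPM after stimulation and 32.2 and 5.53 TPM with TRAIL. They rose by 0.81 ± 0.13 and 0.95 ± 0.16 on the log2 scale on stimulation (limma, adjusted p = 0.000242 and 0.000377). Rexo2, an exonuclease of short RNAs, had means of 96.9, 175 and 77.0 TPM and fell by 1.18 ± 0.087 with TRAIL against stimulated cells (limma, adjusted p = 9.64e-07).

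For translation, 5 of 11 mitochondrial factors passed as higher and 3 as lower on stimulation, and 6 and 4 of 19 tRNA synthetases did, where 28.8% of all genes passed as higher and 40.0% as lower. The 3 lower factors were Mtif3, Mtrf1l and Oxa1l, and the 4 lower synthetases Ears2, Mars2, Hars2 and Fars2. With TRAIL against stimulated cells 7 factors passed as lower and 1 as higher (Oxa1l). Of the synthetases 9 passed as lower and 2 as higher (Hars2 and Fars2), where 33.5% of all genes passed in each direction. Tsfm, an elongation factor, had means of 16.6, 47.5 and 10.8 TPM and log2 fold changes of 1.47 ± 0.11 and -2.04 ± 0.11 in these comparisons (limma, adjusted p = 7.26e-07 and 7.64e-08). Gars, the glycine synthetase, had the largest difference of its list, with 66.2, 68.6 and 64.7 TPM in medium, 415, 452 and 441 TPM after stimulation and 52.9, 54.5 and 49.3 TPM with TRAIL. This gene also makes the cytosolic enzyme, and the glycine tRNA gene mt-Tg did not pass.
Of the biogenesis regulators, Ppargc1a was under 1 TPM in all libraries and was not tested. Ppargc1b had means of 6.57, 4.62 and 9.62 TPM and rose by 0.93 ± 0.21 on the log2 scale with TRAIL against stimulated cells (limma, adjusted p = 0.00243). Pprc1, a relative of both that serum and growth signals induce, had means of 38.3, 69.6 and 26.2 TPM, and Myc means of 142, 654 and 196 TPM. Both rose on stimulation, by 0.81 ± 0.19 and 2.20 ± 0.12 on the log2 scale, and fell by 1.35 ± 0.19 and 1.73 ± 0.12 with TRAIL against stimulated cells (limma, adjusted p from 1.01e-07 to 0.00336). Of 8 tested regulators 3 passed as higher on stimulation (Gabpb1 besides these) and 2 as lower (Nrf1 and Esrra). Of all genes 28.8% passed as higher and 40.0% as lower. With TRAIL against stimulated cells 1 of the 8 passed as higher and 4 as lower, where 33.5% of all genes passed in each direction.

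Markers of B, myeloid, erythroid and NK cells were lowest in the stimulated libraries. The 10 B cell markers summed to 5973 to 6588 TPM in medium, 696 to 762 TPM after stimulation and 3031 to 3496 TPM with TRAIL. The 12 myeloid markers summed to 2301 to 2543, 92.0 to 103 and 1681 to 1920 TPM, the 6 erythroid markers that were found to 2081 to 2534, 24.8 to 39.6 and 610.4 to 660.4 TPM, and the 4 NK cell markers to 96.0 to 126, 9.19 to 12.2 and 29.0 to 31.2 TPM. All markers of these 4 lists passed as lower on stimulation and as higher with TRAIL against stimulated cells (40.0% and 33.5% of all genes). The 10 T cell markers summed to 4085 to 4494, 3529 to 3753 and 4039 to 4494 TPM and the 2 CD8 T cell markers to 110 to 118, 94.2 to 105 and 46.9 to 49.4 TPM. In medium the B cell markers summed to more TPM than the T cell markers. The part of other cells in the results on the members was not tested.
Libraries of a group correlated at 0.983 to 0.993 over all genes tested. For the whole table, median-of-ratios scaling and quantile normalization shifted the median gene from -0.15 to -0.010 and 0.040 for stimulated against medium cells, and from -0.18 to -0.021 and -0.043 for TRAIL-treated against medium cells. Relative to the median gene, the mRNAs had a median of -0.46 and the tRNA genes of 1.39 on stimulation, and 0.71 and -0.82 with TRAIL against stimulated cells. Over all genes called, 1926 were higher and 3033 lower on stimulation, which quantile normalization turned into 2434 and 2240. With TRAIL against medium the split was 387 to 331, then 523 to 186 by median-of-ratios scaling and 526 to 219 by quantile normalization.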

How the data were processed

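Total RNA was extracted with TRIzol, and mRNA libraries were prepared with the SureSelect XT HS2 kit for 9 samples. According to the labels and the study's methods, the authors trimmed reads with Trimmomatic 0.36 and aligned them with HISAT2 2.1.0, and the submitters' notes give the versions and also name SAMtools 1.2, StringTie 2.1.2 and DESeq2. The methods give GRCm38, whereas the notes list GRCh38; all identifiers are mouse. The annotation release and the strand setting are not given in the sources used here. The deposited table gives TPM per gene, made by the authors, and holds no read counts, so a count test could not be used and the depth per library is unknown.

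Groups and replicate numbers came from the sample labels. Comparisons used limma 3.58.1 (R 4.3.3; lmFit, eBayes with a trend) in 1 fit of the 9 libraries on log2(TPM + 1), without a replicate block, over 15536 genes, with Benjamini-Hochberg adjustment over all of them. The fit was tested on simulated data. Shares, ratios, sums and portions of the mRNA pool have no test; with 3 libraries in each group the smallest two-sided p of an exact test is 0.1. Copies were found with BLAST+ 2.17.0 (at least 90% identity over at least 60 bases) against GENCODE M21 transcripts, which also supplied the sequences; anticodons were located with Biopython 1.88. Named nuclear genes were 8 chosen regulators, the gene with the largest passing difference of each list and the most abundant subunit of each complex; features with counts of 5 or fewer were named after their values were seen. The members and lists were chosen with earlier results of these data known. Alternatives varied the pseudocount, filter, scaling, total, variance trend, libraries and replicate block, and left out each library. The alternatives with the chromosome 1 copies were chosen after seeing the data. A marker gene is not reported here by name, and 3 listed symbols with 2 rows were left out. Tables were made with Python 3.11.15 and pandas 2.3.3, figures with matplotlib 3.10.9.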

Additional observations from a re-analysis of the deposited data

How the results depend on the processing

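The number of members called stayed within 1.5 times for stimulated against medium cells (17, with 14 to 17 over the alternatives) and TRAIL-treated against stimulated cells (13, with 9 to 14). For TRAIL-treated against medium cells it was 5, fell to 1 with a pseudocount of 5 TPM, and ranged from 2 to 5 when each library was left out. The median log2 fold change of the mRNAs moved from -0.61 to -0.45 with median-of-ratios scaling and -0.35 with quantile normalization for stimulated against medium cells, from 0.73 to 0.34 for TRAIL-treated against stimulated cells when quantile-normalized, and from 0.017 to 0.20 with median-of-ratios scaling for TRAIL-treated against medium cells; quantile normalization equalises the top ranks that the mRNAs hold. For TRAIL-treated against medium cells, 10 of 75 nuclear OXPHOS subunits passed (8.03% of all genes passed as higher and 24.6% as lower), beside 3 without a filter, 6 with median-of-ratios scaling and 6 with quantile normalization, and 5 to 18 when each library was left out, the highest without medium replicate 2; of the 79 tested genes of mitochondrial expression and biogenesis 33 passed, beside 20 without a filter and 20 with median-of-ratios scaling, and 17 to 41 when each library was left out. The mean share of the mRNAs in the medium, stimulated and TRAIL-treated groups was 11.1, 5.98 and 11.0% of the TPM of protein-coding genes, and 13.02, 7.15 and 12.8% of all TPM with the chromosome 1 copies added. Same-numbered libraries deviated with correlations of -0.31 to 0.29, with 3 of 9 pairs above 0.1. Of the 9 libraries, 4 correlated best with their own number. Deviations from means of 3 libraries cannot show whether same-numbered libraries share a source, and the labels do not say. With a replicate block 17, 13 and 5 members were called, as without it, mt-Nd6 no longer passed on stimulation and mt-Tv passed for TRAIL-treated against medium cells. No named gene that passed changed direction. TPM hold no read totals, so what depth limits could not be assessed.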

Other observations

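A further nuclear copy of mitochondrial DNA lies on chromosome 2 of GRCm38 and differs more from the members. Gm13340, which matches mt-Co1 over 1545 bases at 97.6% identity, had 16.1 to 17.1 TPM in medium, 15.8 to 16.5 TPM after stimulation and 19.6 to 20.1 TPM with TRAIL, so it did not share the range of mt-Co1. Gm13341, which matches mt-Co2 at 95.9% identity, had 12.5 to 17.5, 10.9 to 12.8 and 24.3 to 31.8 TPM in the same order, with the TRAIL-treated libraries highest. Gm13339, which matches the last 510 bases of mt-Nd2 at 96.7% identity, had 4.15 to 5.05 TPM, at most 0.437 TPM and 3.74 to 5.31 TPM. Among the mRNAs, mt-Co3, mt-Nd4 and mt-Cytb end on a single T after the last full codon, a stop codon that is known to be completed by the poly(A) tail, and these 3 fell by 1.24, 0.48 and 0.87 on the log2 scale on stimulation.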
